A study of Mus musculus with 28 samples.

Results

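Deletion of Nrp1 in Foxp3-expressing cells was examined in the leukocytes of early B16.F10 tumours. The comparison holds 4 of the 28 arrays of the series, chosen by their titles: 2 arrays of CD45+ cells from Nrp1-deleted hosts and 2 from control hosts. B16.F10 is a mouse melanoma line, and CD45 is a surface protein of nearly all leukocytes. Control mice carried Foxp3Cre-YFP, an allele from which Foxp3 drives a Cre recombinase and a yellow fluorescent protein. The other mice were Nrp1L/LFoxp3Cre-YFP: they carried the same Cre allele and floxed copies of Nrp1, so both groups had the Cre and only one could lose Nrp1 where Foxp3 is expressed. The sorted population was all CD45+ cells, of which regulatory T cells (Treg) are one part. The sample titles place these tumours at day 8 and the source names at day 6, so the tumours are called early. Whether the replicate arrays stand for separate mice is stated in none of the labels, so each p-value covers array-to-array spread that may be technical.

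Neuropilin-1, the product of Nrp1, is a co-receptor for semaphorins and for vascular endothelial growth factor. On Treg it binds semaphorin 4A and is known to help these cells keep their suppressive programme inside tumours. Treg restrain CD8+ T cells and shape the macrophages and dendritic cells around them. The comparison asks what the whole leukocyte infiltrate expresses when Treg lack this receptor.

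Values are log2 intensities, and each of 17097 genes is represented by 1 probe set. A difference is Nrp1-deleted minus control on the log2 scale, with its standard error (SE) after the ± sign, so that 1 unit is 2-fold. A gene passed when its Benjamini-Hochberg adjusted p from limma, fitted over all 28 arrays, was below 0.05. The labelled population was borne out by its marker: Ptprc, which encodes CD45, read 12.74 and 12.61 on the control arrays and 12.72 and 12.71 on the Nrp1-deleted arrays. None of the 9 measured leukocyte identity genes passed, with a median difference of 0.10.

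The second Nrp1-deleted array stood apart. The control arrays correlated at 0.994 over probe sets and the Nrp1-deleted arrays at 0.9913. Between the control arrays 35 genes lay at least 2-fold apart, and between the Nrp1-deleted arrays 207. Of these, 164 of all 17097 genes were higher on deleted array 1. Among them were 10 of 18 macrophage identity genes, 10 of 26 alternatively activated macrophage genes and 9 of 16 Fc receptor and complement genes. So were 6 of 14 MHC class II genes, 6 of 11 monocyte-attracting chemokine genes, 6 of 15 melanocytic genes and 5 of 17 mature dendritic cell genes. The other 43, out of the same 17097, were higher on deleted array 2, among them 5 of 16 basophil and mast cell genes. Without deleted array 2 no gene passed in limma, although 683 had an unadjusted p under 0.05, and without deleted array 1 294 genes passed. Without control array 1 and without control array 2 the counts were 9 and 6. In these fits the lone array is assumed to vary like the arrays of the other groups. Readings by array are therefore given for many of the genes below, and every count of genes passing in the early comparison rests on deleted array 2.

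Nrp1 itself was lower on the Nrp1-deleted arrays. Its probe set read 9.47 and 9.57 on the control arrays and 8.05 and 7.75 on the Nrp1-deleted arrays. The groups did not overlap, and both Nrp1-deleted arrays lay more than 1 unit below both controls. The difference was -1.62 ± 0.23 (3.08-fold lower, adjusted p = 0.00145), and without deleted array 2 it was -1.48 (adjusted p = 0.0776). The remaining 2 Nrp1 probe sets gave differences of means of -1.72 and -1.64. The position of these probe sets relative to the floxed part is unknown here, and some myeloid cells express Nrp1 too, so this checks the labels in part. Foxp3 read 3.44 and 3.08 against 2.76 and 3.19, all below the median of all values on the arrays (3.64), so Treg abundance could not be read from it. Its difference was -0.29 ± 0.21 (adjusted p = 0.772).

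In all, 76 of 17097 genes passed, which is 0.445%. Of these, 26 were higher in the Nrp1-deleted group (0.152% of all genes) and 50 were lower (0.292%), and 43 differed at least 2-fold (11 higher, 32 lower). For comparison, 1609 genes had an unadjusted p under 0.05. Both Nrp1-deleted arrays lay on the same side of both controls for all 76 genes. Over all genes this held above the controls for 21.2% and below them for 22.9%. The 76 were picked by their differences on these same arrays, so the lack of overlap is no separate support for them. Deleted array 2 was the more extreme of the 2 Nrp1-deleted arrays for 46 of the 50 lower genes and 24 of the 26 higher ones. Under each of 9 other settings, on all arrays or on the 8 early and day 12 B16 arrays, 13 genes passed: Nrp1, Havcr2, Rhbdf2, Cd70, Eno3, Cd81, Tmem141, Naip5, Cerk, Gnptab, Gcnt1, Suox and AI467606. With the 4 early arrays fitted alone, 15 genes passed, and of the 13 only Nrp1 was among them.

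**Figure D1:**
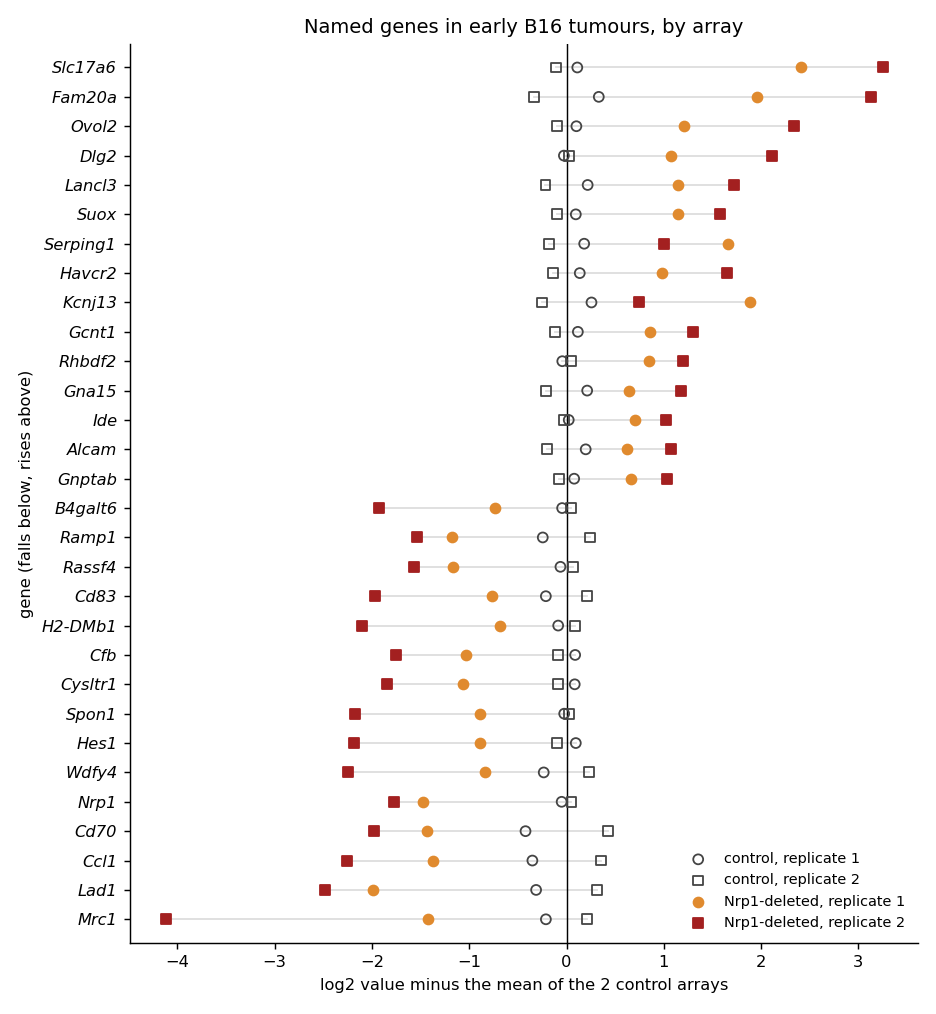
The log2 value of each of the 4 arrays minus the mean of the 2 control arrays (x axis) for the 15 largest rises and 15 largest falls among the genes that passed (y axis). Open symbols are control arrays and filled symbols Nrp1-deleted arrays. No gene's groups overlap, which was a condition of the choice. Deleted array 2 is the farther from the controls for every gene shown except Serping1 and Kcnj13.

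The largest fall was in Mrc1, which encodes the mannose receptor CD206 of tissue and alternatively activated macrophages. It read 7.31 and 7.74 on the control arrays, 6.10 on deleted array 1 and 3.40 on deleted array 2. Both Nrp1-deleted arrays were low, and the gap between them was wider than the gap of the first to the controls. The difference was -2.77 ± 0.59 (6.83-fold lower, adjusted p = 0.0352), and without deleted array 2 it was -1.42. This SE is pooled over all groups and does not reflect the wide gap between the 2 Nrp1-deleted arrays. In mixed cells, fewer cells of a type and less RNA per cell cannot be told apart.

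Mrc1 was the 1 of 26 genes on the alternatively activated macrophage list that passed, and the list's median difference was -0.98, where the median of all genes was 0.00. For 18 of the 26 the Nrp1-deleted arrays lay below both controls, and for 3 above them, where over all genes this held for 22.9% and 21.2%. Several members had large differences that missed the threshold. Clec10a, which encodes a galactose-binding lectin of macrophages and dendritic cells, read 7.21 and 7.8 against 6.48 and 4.45 (-2.04 ± 0.50, adjusted p = 0.0691). Ccl22, which encodes a chemokine that draws CCR4+ cells such as Treg, read 6.38 and 7.05 against 5.54 and 4.44 (-1.73 ± 0.43, adjusted p = 0.0714). For both genes the 2 Nrp1-deleted arrays were below the 2 controls. Arg1, which encodes arginase 1, read 7.56 and 8.68 against 7.55 and 5.34 (-1.67 ± 0.53, adjusted p = 0.201), so that it was low on deleted array 2 and level with the lower control on deleted array 1.

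On the macrophage identity list 1 of 18 genes passed, Lyz2, which encodes lysozyme. It read 11.52 and 11.67 on the control arrays and 11.24 and 10.51 on the Nrp1-deleted arrays (-0.72 ± 0.16, adjusted p = 0.0352). The list's median was -0.59, and the Nrp1-deleted arrays disagreed on it: the median was 0.04 on deleted array 1 and -1.04 on deleted array 2. The complement genes C1qa, C1qb and C1qc, markers of mature macrophages, show the split. C1qa read 8.89 and 9.11 on the control arrays, 8.94 on deleted array 1 and 7.40 on deleted array 2. Csf1r, the receptor of the main macrophage growth factor, read 6.53 and 6.33 against 6.02 and 6.15 (-0.34 ± 0.21, adjusted p = 0.681). The Fc receptor and complement list gave the same contrast between the Nrp1-deleted arrays, with medians of -0.09 and -1.39. Of its 16 genes Cfb fell and Serping1 rose. Cfb encodes factor B of the alternative complement pathway and read 7.21 and 7.03 against 6.09 and 5.37 (-1.39 ± 0.27, adjusted p = 0.022). Serping1 encodes the inhibitor of C1 and read 2.98 and 2.62 against 4.46 and 3.8 (1.33 ± 0.28, adjusted p = 0.0341), and it was the higher on deleted array 1.

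**Figure D2:**
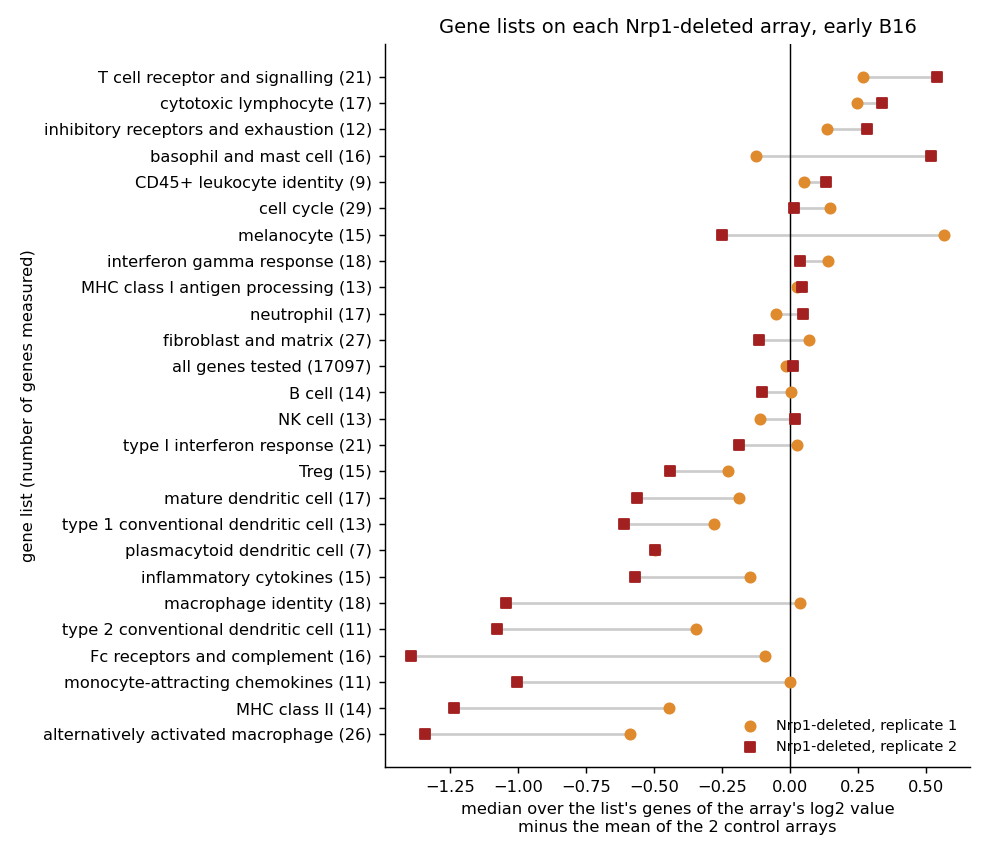
For each gene list (y axis, with the number of genes measured), the median over its genes of a Nrp1-deleted array's log2 value minus the mean of the 2 control arrays (x axis); circles are deleted array 1 and squares deleted array 2. MHC class II and alternatively activated macrophage genes lie below 0 on both arrays, macrophage identity genes lie at 0.04 on one and -1.04 on the other, and T cell receptor and signalling genes lie above 0 on both.

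Some genes of antigen presentation on MHC class II fell, in a number that moved with the processing. MHC class II molecules carry peptides to CD4+ T cells on dendritic cells, macrophages and B cells. The H2-DM proteins load the peptides, the invariant chain Cd74 guards the groove, and cathepsin S, from Ctss, trims that chain. Of the 14 genes 5 passed, all lower, and the list's median was -0.89, with -0.45 on deleted array 1 and -1.24 on deleted array 2. Both Nrp1-deleted arrays were below both controls for 11 of the 14 genes and above them for 0, against 22.9% and 21.2% of all genes. Leaving out arrays changed the count: it was 0 without deleted array 2, 0 without control array 1, 0 without control array 2 and 9 without deleted array 1. So did other settings: it was 1 with the mean over probe sets, 0 with no variance trend, 1 with a robust trend, 10 with array weights, 2 with a replicate block, 2 on the 8 early and day 12 B16 arrays and 0 on the 4 early arrays alone.

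The promoters of the peptide-loading genes are shown because genes of this family share 2 short elements, the X2 box and the Y box, at a set distance. Each is 300 bases from the RefSeq promoter table (build GRCm38.p6), from 250 before to 50 after the gene's start, on the + strand. Capitals mark a Y core ATTGG and each X2 core TGATG that ends 10 to 30 bases before it. The windows are chr17:34152941-34153240 for H2-DMb1, chr17:34144999-34145298 for H2-DMb2 and chr17:34122582-34122881 for the first H2-DMa entry.
H2-DMb1: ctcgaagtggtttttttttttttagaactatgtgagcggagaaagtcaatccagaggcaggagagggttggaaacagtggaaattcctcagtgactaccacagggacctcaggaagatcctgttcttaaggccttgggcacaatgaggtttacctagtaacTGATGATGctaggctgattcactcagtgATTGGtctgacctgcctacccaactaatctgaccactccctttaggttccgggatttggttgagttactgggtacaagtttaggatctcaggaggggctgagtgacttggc
H2-DMb2: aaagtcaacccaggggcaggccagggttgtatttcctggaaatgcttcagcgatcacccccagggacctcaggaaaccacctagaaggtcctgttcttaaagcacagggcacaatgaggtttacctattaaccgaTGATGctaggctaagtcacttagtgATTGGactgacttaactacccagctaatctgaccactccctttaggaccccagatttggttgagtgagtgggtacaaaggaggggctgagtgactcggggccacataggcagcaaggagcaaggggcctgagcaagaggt
H2-DMa: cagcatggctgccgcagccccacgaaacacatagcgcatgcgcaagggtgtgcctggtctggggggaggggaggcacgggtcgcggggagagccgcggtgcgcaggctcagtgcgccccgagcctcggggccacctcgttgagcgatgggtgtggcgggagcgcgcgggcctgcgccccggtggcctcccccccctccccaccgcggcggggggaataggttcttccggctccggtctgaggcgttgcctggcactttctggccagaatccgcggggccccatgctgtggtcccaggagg
H2-DMb1 holds 2 overlapping matches to the X2 core, which lie 23 and 20 bases from the Y core and begin 89 and 86 bases before the start. H2-DMb2 holds 1, which lies 20 bases from the Y core and begins 115 bases before the start. The H2-DMa window shown holds no such arrangement. The pairing of the cores was chosen with the results known. Searched on both strands, the arrangement was found in 5 of the 11 list genes with an entry (H2-DMb1, H2-DMb2, H2-Ob, H2-Eb1 and H2-Eb2) and in 1.38% of the 27025 genes of the table. The X2 core alone was in 8 of the 11 and in 42.9% of all genes, and the Y core alone in 9 of the 11 and in 41.1%. No X2 core overlaps the Y core it is paired with. These matches describe letters, not binding sites, and 2 overlapping matches need not be 2 X2 boxes. Other spellings of the X2 box were not searched, so a gene without a match, such as H2-Aa, may still hold one. Some holders did not pass: H2-Eb2 read 3.85 and 4.04 against 4.30 and 3.97 (0.19 ± 0.26, adjusted p = 0.909).

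H2-DMb1, whose product is the beta chain of H2-DM, read 7.86 and 8.03 on the control arrays and 7.26 and 5.84 on the Nrp1-deleted arrays (-1.39 ± 0.28, adjusted p = 0.0314). Its close copy H2-DMb2 read 8.59 and 8.67 against 8.01 and 6.92 (-1.16 ± 0.25, adjusted p = 0.0352), and probe sets of such similar genes may each read both. H2-DMa, the alpha chain, read 9.21 and 9.45 against 8.77 and 8.12 (-0.88 ± 0.18, adjusted p = 0.029). The 3 loading genes thus ran in the same order over the arrays, with deleted array 1 between the controls and deleted array 2. Cd74 read 9.99 and 10.42 against 9.69 and 8.75 (-0.99 ± 0.22, adjusted p = 0.0473). Ctss had the smallest difference of the 5, at 11.92 and 11.98 against 11.69 and 11.27 (-0.47 ± 0.10, adjusted p = 0.0352). The classical chains had differences of similar size that did not pass: -0.89 ± 0.22 for H2-Aa (adjusted p = 0.082), -1.0 ± 0.25 for H2-Ab1 (adjusted p = 0.073) and -1.0 ± 0.27 for H2-Eb1 (adjusted p = 0.112). Ciita, the master activator of the class II genes, read 4.39 and 4.18 against 4.41 and 3.40, and its partner Rfx5 differed by -0.08 ± 0.17 (adjusted p = 0.949). By contrast with class II, 0 of 13 genes of MHC class I presentation passed, and their median was 0.03.

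**Figure D3:**
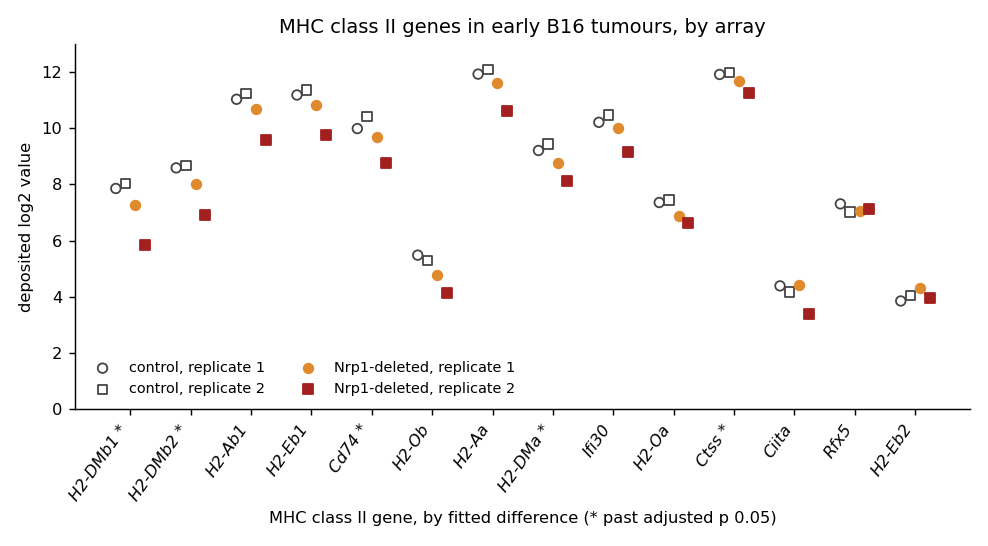
Deposited log2 values (y axis) of the 14 MHC class II genes (x axis, ordered by fitted difference) on the 2 control arrays (open symbols) and the 2 Nrp1-deleted arrays (filled symbols). Stars mark the 5 genes that passed; deleted array 2 is the lowest of the 4 arrays for each of them and deleted array 1 the second lowest.

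Of the dendritic cell lists, those of type 1 conventional and of mature cells had 1 passing gene each, both lower. Wdfy4, which type 1 conventional dendritic cells need for cross-presentation, was the 1 of 13 genes on that list to pass. It read 7.14 and 7.61 on the control arrays and 6.54 and 5.13 on the Nrp1-deleted arrays (-1.54 ± 0.30, adjusted p = 0.0263). For 10 of the 13, and for 22.9% of all genes, the Nrp1-deleted arrays lay below both controls. The list's median was -0.45. Xcr1, the chemokine receptor that marks these cells, read 4.58 and 4.95 against 3.99 and 3.39 and did not pass (adjusted p = 0.511). Of 17 mature dendritic cell genes Cd83, a surface marker of maturation, passed: it read 9.66 and 10.09 against 9.11 and 7.91 (-1.37 ± 0.30, adjusted p = 0.0379). Fscn1, which bundles actin in the cell's processes, read 10.95 and 11.53 against 10.55 and 9.73 and missed the threshold (-1.11 ± 0.29, adjusted p = 0.0902). Among type 2 conventional and plasmacytoid dendritic cell genes 0 of 11 and 0 of 7 passed, with medians of -0.65 and -0.51. The type 2 list was split, with 6 differences below 0 and 5 above. On the plasmacytoid list the median was -0.50 on each Nrp1-deleted array. The median of the basophil and mast cell list was -0.13 on deleted array 1. On deleted array 2 it ran the other way, at 0.52, and the part of this shift in the myeloid falls was not tested.

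Other genes fell without being on a list, some of them known from myeloid cells and some not. Mpeg1, Naip5, Cd81, Ly86, Plbd1, Cst3 and Psap are named after their values were seen. Mpeg1, which encodes the pore-forming protein perforin-2, read 10.53 and 10.75 against 10.05 and 9.13 (-1.05 ± 0.19, adjusted p = 0.0133). Naip5, the sensor of bacterial flagellin, read 6.03 and 6.12 against 5.23 and 4.83 (-1.04 ± 0.19, adjusted p = 0.0129). Cd81, a tetraspanin, read 8.46 and 8.98 against 7.82 and 7.24 (-1.19 ± 0.21, adjusted p = 0.0124). In each of the 3, as in every gene that passed as lower, both Nrp1-deleted arrays lay below both controls. Cysltr1, a receptor for cysteinyl leukotrienes, fell by 1.46, and its second probe set had a difference of means of -1.22. Ly86 fell by 1.10, Plbd1 by 1.26, Cst3 (cystatin C) by 0.83 and Psap (prosaposin) by 0.69. In that order, their values minus the control mean were -0.47, -0.59, -0.37 and -0.41 on deleted array 1. On deleted array 2 they were -1.72, -1.93, -1.29 and -0.97. Spon1, Ramp1, Rassf4 and B4galt6 also stood among the 15 largest falls (-1.53, -1.36, -1.37 and -1.33). Other probe sets of these genes gave differences of means as small as 0.00, 0.02, -0.41 and -0.09. Those of Spon1 and Ramp1 with 0.00 and 0.02 read below the median of all values (3.64) on all 4 arrays, where a fall could hardly show. The other B4galt6 probe sets gave -1.26, -0.30 and -0.09.

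Cd70 and Ccl1, among the 15 largest falls, encode ligands. Cd70, the ligand of the co-stimulatory receptor CD27, read 6.06 and 6.91 on the control arrays and 5.05 and 4.50 on the Nrp1-deleted arrays. The gap between the groups exceeded the gap within either, and the difference was -1.71 ± 0.31 (3.26-fold lower, adjusted p = 0.0133). It was the 1 of 16 genes of TNF-family co-stimulation to pass, and the list's median was -0.13. Its receptor Cd27 read 9.23 and 9.09 against 9.40 and 9.71 (0.39 ± 0.45, adjusted p = 0.888). Ccl1, the ligand of CCR8, a receptor of tumour Treg, read 6.72 and 7.42 against 5.70 and 4.81 (-1.82 ± 0.35, adjusted p = 0.0256). Ccr8 itself read 4.58 and 5.54 against 4.45 and 4.11 and did not pass (-0.78 ± 0.37, adjusted p = 0.508). Lad1, which encodes the basement membrane protein ladinin-1, read 5.41 and 6.04 against 3.74 and 3.24 (-2.24 ± 0.46, adjusted p = 0.0314). Eno3, an enolase best known from muscle and named after its values were seen, read 8.09 and 8.57 against 7.30 and 6.89 (-1.23 ± 0.17, adjusted p = 0.00145).

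Hes1 and Hey1, transcriptional repressors that Notch signals switch on, both fell. Hey1 read 5.08 and 4.84 on the control arrays and 3.95 and 3.83 on the Nrp1-deleted arrays, so that each group was tight and the groups lay well apart (-1.07 ± 0.17, adjusted p = 0.00391). Hes1 read 5.56 and 5.37 against 4.57 and 3.28 (-1.54 ± 0.32, adjusted p = 0.035). The other 8 measured genes of the Notch pathway, a list made after these values were seen, did not pass. Notch1 differed by 0.18, Rbpj, the DNA-binding partner of Notch, by -0.03, and Nrarp, a feedback target, read 9.17 and 9.16 against 8.58 and 8.60 (-0.58 ± 0.34, adjusted p = 0.672).

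Among Treg genes 1 of 15 passed, and it was lower. Ebi3, a subunit of the cytokines IL-27 and IL-35 that myeloid cells also express, read 7.82 and 8.18 against 7.51 and 6.27 (-1.10 ± 0.25, adjusted p = 0.0483). For 9 of the 15, and for 22.9% of all genes, the Nrp1-deleted arrays lay below both controls. The list's median was -0.31. Ikzf2, which encodes Helios, a transcription factor of Treg, read 10.58 and 10.72 against 10.09 and 9.48 (-0.86 ± 0.35, adjusted p = 0.4). Il2ra, the high-affinity IL-2 receptor chain, read 7.52 and 7.64 against 7.6 and 7.03, and Ctla4 read 11.52 and 11.59 against 11.59 and 11.62. Neither difference passed. Of the 28 genes for neuropilins, semaphorins, plexins and their ligands only Nrp1 passed. Nrp2, the second neuropilin, read 5.33 and 5.41 against 4.91 and 4.65 (-0.60 ± 0.20, adjusted p = 0.236), and Sema4a, the Treg ligand, differed by 0.16 ± 0.15. Plxnb2, a semaphorin receptor, read 5.92 and 5.57 against 5.04 and 4.44 (-1.01 ± 0.24, adjusted p = 0.0595).

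On the side of the rises, Havcr2 passed among the inhibitory receptors. It encodes TIM-3, an inhibitory receptor of exhausted CD8+ T cells that dendritic cells and macrophages also carry. It read 8.71 and 8.44 on the control arrays and 9.56 and 10.23 on the Nrp1-deleted arrays. Both Nrp1-deleted arrays were above both controls, and the difference was 1.32 ± 0.18 (2.49-fold higher, adjusted p = 0.00145). Without deleted array 2 it was 0.98 (adjusted p = 0.0776). Havcr2 was the 1 of 12 genes of inhibitory receptors and exhaustion to pass. Entpd1, which encodes the ectoenzyme CD39, came next at 6.78 and 6.10 against 7.11 and 7.48 (0.86 ± 0.21, adjusted p = 0.0719). Lag3 read 7.72 and 7.08 against 8.54 and 9.43, a larger difference with a larger error (1.59 ± 0.57, adjusted p = 0.304). Pdcd1, which encodes PD-1, differed by 0.25 ± 0.47.

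No gene of the T cell receptor and signalling list passed, although 18 of its 21 differences were above 0 and the median was 0.41. Over all genes, 8617 of 17097 differences were above 0. Cd8a, which encodes the CD8 alpha chain, read 10.26 and 9.93 on the control arrays and 11.02 and 11.46 on the Nrp1-deleted arrays (1.14 ± 0.46, adjusted p = 0.391). Cd8b1, the second chain, read 10.51 and 9.95 against 11.22 and 11.51 (1.13 ± 0.49, adjusted p = 0.452). Both Nrp1-deleted arrays were above both controls for 15 of the 21 genes, Cd8a and Cd8b1 among them, and below them for 0. Over all genes the shares were 21.2% and 22.9%. Cd4 read 5.82 and 5.40 against 5.78 and 6.27, with overlap. The list of T cell quiescence and memory also had 0 of 10 genes past the threshold, with medians of -0.14 on deleted array 1 and 0.14 on deleted array 2. The cytotoxic list of 17 genes also had no passing member, and its median was 0.35. Prf1, which encodes perforin, read 9.81 and 9.51 against 10.89 and 11.17 (1.37 ± 0.45, adjusted p = 0.236), and Gzmk, which encodes granzyme K, 9.28 and 8.77 against 9.83 and 10.76 (1.27 ± 0.60, adjusted p = 0.510). Some members lay on the other side: Xcl1, the chemokine that draws XCR1+ dendritic cells, read 11.36 and 11.74 against 10.92 and 10.63 (-0.78 ± 0.29, adjusted p = 0.344). Cd8a, Prf1 and Lag3 thus had differences above 1 unit on groups that did not overlap, and their SEs were 0.45 to 0.57 where the median SE over all genes was 0.19.

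The other rises came from genes of many kinds. Slc17a6, which encodes a vesicular glutamate transporter, read 5.29 and 5.07 on the control arrays and 7.59 and 8.43 on the Nrp1-deleted arrays (2.83 ± 0.60, 7.10-fold higher, adjusted p = 0.0352), and its second probe set had a difference of means of 2.45. Fam20a, a pseudokinase of the secretory pathway, read 4.99 and 4.32 against 6.61 and 7.78 (2.54 ± 0.56, adjusted p = 0.0366). Ovol2, a zinc-finger repressor best known from epithelia, read 3.90 and 3.70 against 5.0 and 6.14 (1.77 ± 0.27, adjusted p = 0.00309). In these 3 genes, as in every gene that passed as higher, both Nrp1-deleted arrays lay above both controls. Dlg2 followed with 1.59 ± 0.30, but its other 2 probe sets gave differences of means of 0.19 and 0.54. Lancl3 rose by 1.43 and Suox, which encodes sulfite oxidase, by 1.36. Kcnj13, a potassium channel, read 4.28 and 3.76 against 5.90 and 4.77 (1.32 ± 0.29, adjusted p = 0.0432). It was the higher on deleted array 1, and without that array its difference was 0.75. In B16 it differed by -0.62 at day 12 and by -3.18 at day 18.

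The remaining 6 of the 15 largest rises were smaller, between 0.85 and 1.08. Rhbdf2, which encodes iRhom2, the partner that brings the TNF-releasing protease to the membrane, read 5.92 and 6.0 against 6.80 and 7.16 (1.02 ± 0.15, adjusted p = 0.00198). Gcnt1, which branches the O-glycans of activated T cells, read 6.20 and 5.97 against 6.94 and 7.39 (1.08 ± 0.21, adjusted p = 0.0263), and its second probe set had a difference of means of 1.39. Gnptab, which starts the mannose 6-phosphate tag of lysosomal enzymes, read 8.91 and 8.75 against 9.49 and 9.87 (0.85 ± 0.15, adjusted p = 0.0107), with 1.04 and 1.14 on its other probe sets. Within each group these readings lay close together. Ide, the insulin-degrading enzyme, rose by 0.86 ± 0.17, and its other 3 probe sets gave 0.67 to 1.43. Gna15, a G protein subunit of blood cells, rose by 0.91 ± 0.19 and Alcam, the adhesion partner of CD6, by 0.85 ± 0.18.

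Several programmes had no passing gene. Of the 18 interferon gamma response genes measured, 0 passed and the median was 0.07, and of 21 type I interferon response genes 0 passed (median -0.11). The 29 cell cycle genes had a median of 0.09, the 13 natural killer cell genes -0.07, the 14 B cell genes -0.05 and the 17 neutrophil genes 0.02, and 0 passed in each. The 17 genes of SREBP2 and cholesterol synthesis had a median of -0.32. For 14 of these 17, and for 22.9% of all genes, the Nrp1-deleted arrays lay below both controls, and 0 of the 17 passed. Mvd, an enzyme of the mevalonate pathway, came nearest at 6.77 and 6.43 against 5.79 and 5.69 (-0.86 ± 0.20, adjusted p = 0.0595). The 13 genes of SREBP1 and fatty acid synthesis had a median of -0.20, and 0 passed.

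Melanocytic genes were present although the cells were sorted for CD45. Of the defining markers, Tyrp1 read 10.06 and 10.09 on the control arrays and 10.64 and 9.37 on the Nrp1-deleted arrays, Pmel 7.96 and 8.06 against 8.73 and 8.04, and Tyr 7.23 and 6.48 against 7.6 and 6.71. Of the 15 melanocytic genes measured 0 passed. The list's mean level was 6.39 and 6.14 on the control arrays, 6.82 on deleted array 1 and 6.02 on deleted array 2, so the groups overlapped. Fibroblast and matrix genes had mean levels of 3.87, 3.94, 4.0 and 3.78. The part of melanocytic RNA in the results was not tested.

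The same genotypes at day 12 in B16 gave the nearest comparison, with 2 other arrays a side, and there 2900 genes passed (17.0%). Of the 50 genes lower early, 45 had a difference below 0 at day 12, where 44.0% of all genes did, and of the 26 higher early 23 were above 0. At day 12 51 of the 76 passed in the same direction, which is 67.1% of the early calls and 1.76% of the day 12 calls. The median difference of the genes called lower was -1.12 early and -1.63 at day 12, and that of the genes called higher 0.86 and 0.45.

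**Figure D4:**
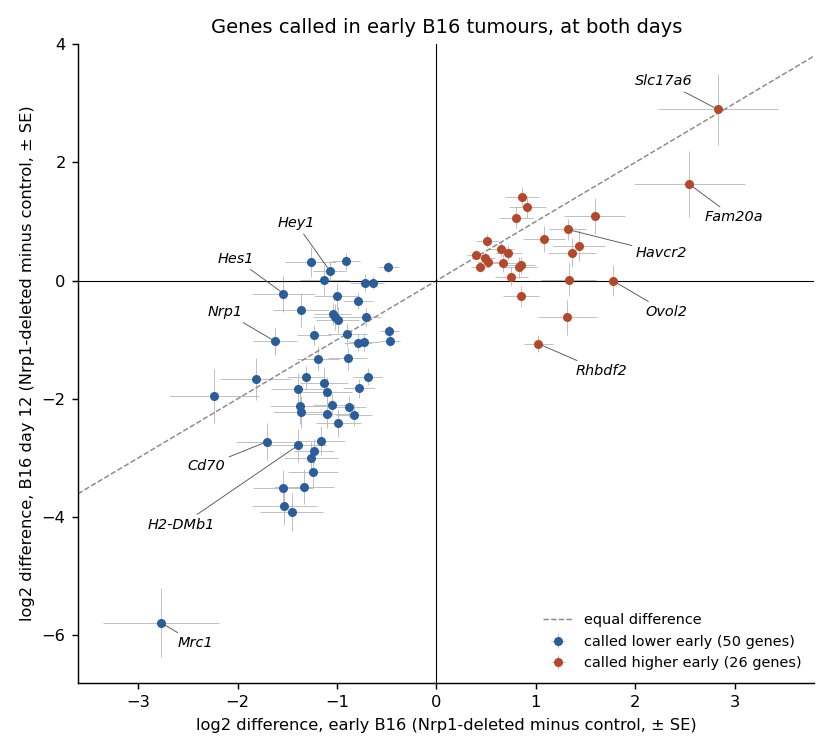
Differences between Nrp1-deleted and control arrays in early B16 tumours (x axis) and at day 12 (y axis) for the 76 genes that passed early, with SE bars on both axes and a dashed line of equal differences. Of the 50 falls 31 lie below the line, that is, were larger at day 12, while Ovol2 and Hey1 lie near 0 at day 12 and Rhbdf2 lies on the opposite side.

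Tested directly as a difference of the 2 effects, 754 genes were higher early (4.41%) and 321 were lower (1.88%), and 752 of the 754 were below 0 at day 12. The total of 1075 was 601 without early deleted array 1, 666 without early control array 1, 627 without day 12 deleted array 1 and 711 without day 12 control array 2. Mrc1 differed by -2.77 early and -5.78 ± 0.59 at day 12, a gap of 3.01 ± 0.83 (adjusted p = 0.0284). Pf4, Arg1 and Dab2, all expressed by macrophages, were among the 5 largest gaps. Pf4, a platelet and macrophage chemokine, read 5.93 and 7.11 against 6.63 and 3.78 early, a difference of -1.31 ± 0.61, and differed by -6.59 ± 0.61 at day 12 (gap 5.27 ± 0.86, adjusted p = 0.000329). Without deleted array 2 its early difference was 0.11. H2-DMb1 differed by -1.39 early and -2.79 at day 12 (gap 1.39 ± 0.40, adjusted p = 0.0383), and of the 14 MHC class II genes 8 had an effect that passed as less negative early. On the macrophage identity list 12 of 18 did, and its median was -2.91 at day 12. Melanocytic genes moved too: for 10 of 15 the effect passed as higher early. That list's median was 0.08 early, -1.75 at day 12 and -3.12 at day 18 in B16. The part of melanocytic RNA in these gaps was not tested. The effects on Nrp1 itself were not shown to differ between the days (-1.62 early and -1.03 at day 12, adjusted p = 0.346).

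Other gaps came from effects that were near 0 at day 12 or had the opposite sign there. Ovol2 rose by 1.77 early and differed by 0.00 ± 0.27 at day 12 (gap 1.77 ± 0.38, adjusted p = 0.00472). Rhbdf2 rose early and fell by 1.07 at day 12, with a gap of 2.09 ± 0.21 (adjusted p = 4.35e-06). Alcam rose by 0.85 early and differed by -0.26 at day 12 (gap 1.11 ± 0.25, adjusted p = 0.00717). Among lymphocyte genes Il2, which encodes interleukin-2, read 4.93 and 5.44 against 4.22 and 4.24 early and was lower there by 0.96, with no pass, and it differed by 1.73 ± 0.36 at day 12 (gap -2.68 ± 0.51, adjusted p = 0.00157). Trat1, a T cell receptor adaptor, went the same way (-1.06 early, 1.03 at day 12, adjusted p of the gap 0.0475). Hey1 fell by 1.07 early and differed by 0.17 at day 12 (adjusted p of the gap 0.00167), while for Hes1 the gap missed the threshold (-1.54 early and -0.22 at day 12, adjusted p = 0.0889). Gzmd and Gzme, granzymes of strongly stimulated killer cells with near-identical relatives, had the largest gaps among the genes named by rule. Gzmd read 5.41 and 4.41 against 7.53 and 7.17 early (2.44 ± 1.19) and differed by -4.29 ± 1.19 at day 12 (gap 6.73 ± 1.69, adjusted p = 0.0152).

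By day 18 in B16, 44 of the 50 genes lower early were below 0, as were 49.7% of all genes, and 21 of the 26 higher early were above 0. Mrc1 differed there by -2.23, Cd70 by -1.30, H2-DMb1 by -1.46 and Havcr2 by 0.32. These values are estimates beside the early ones, since the day 18 arrays have another distribution (mean log2 value 4.63 against 4.96).

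MC38 is a colon carcinoma line, and the same genotypes were compared in it at day 6. Of the 50 genes lower early in B16, 27 were below 0 in MC38, where 58.7% of all genes were, and of the 26 higher 16 were above 0. The medians were -0.01 and 0.03. The difference between the tumours' effects passed for 29 genes higher in B16 (0.17%) and 27 lower (0.158%), and 11 of these 56 were among the 76 early calls. The 56 became 5 without B16 control array 1, 8 without B16 control array 2, 158 without B16 deleted array 1 and 4 without B16 deleted array 2. They became 5 without MC38 control array 1 and 119 without MC38 deleted array 2. Havcr2 differed by 0.03 ± 0.18 in MC38 (gap 1.29 ± 0.26, adjusted p = 0.0317), and Cfb by 0.50 ± 0.27 (gap -1.90 ± 0.38, adjusted p = 0.0317). Nrp2, the second neuropilin, differed by 0.77 in MC38, and its gap passed (adjusted p = 0.0317). Mrc1, at 0.83 in MC38, had a gap of -3.6 ± 0.83 that missed the threshold (adjusted p = 0.0628). Bcl2, which encodes a survival protein of lymphocytes, read 8.46 and 8.63 against 7.74 and 7.78 in early B16 (-0.79 ± 0.21) and differed by 1.17 ± 0.21 in MC38 (gap -1.96 ± 0.29, adjusted p = 0.00529). The largest gaps upward came from MC38: Col5a1, a collagen gene, differed by -3.22 ± 0.32 there and by 0.11 ± 0.32 in early B16, where it read 3.47 and 3.49 against 3.99 and 3.19. The MC38 day 6 arrays have a mean log2 value of 4.83 against 4.96, so tumour and array set cannot be told apart in these gaps.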

How the data were processed

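RNA of sorted CD45+ cells, not cultured, was extracted, amplified in 2 cycles and hybridised to Affymetrix arrays, per the labels' protocols. The authors deposited log2 values; the submitters' processing notes name RMA and Partek 6.6, without their roles or order. Of 45141 probe sets, 104 were controls, 28898 had 1 gene symbol, 551 had several and 15588 were unnamed here. Each of 17097 genes was represented by its probe set of highest mean over the 28 arrays, and 7180 genes had several. Differences came from limma (3.58.1, run in R 4.3.3) fitted to all arrays as 12 group means, with an intensity trend and Benjamini-Hochberg adjustment, 2-sided, and the script was tested on simulated data. The precision of each difference is limited by 2 arrays a group. Named genes are the 15 largest rises and 15 largest falls that passed, with the higher group mean above the median of all values, no overlap between groups and no clone names, the 5 largest gaps each way between effects, and from each list described up to 4 passing members and those it is known by. Members and lists were chosen with earlier results of these data known. Alternatives were a filter on dim genes, averaged probe sets, loess or 75th-percentile scaling, other variance settings, array weights, a replicate block, fewer groups and each array left out.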

Additional observations from a re-analysis of the deposited data

Results flagged for a closer look

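The effect of Nrp1 deletion differed between early and day 12 B16 tumours for 1075 genes, by limma's test of the difference of effects. Among the genes named by rule, the early effect was the higher by 6.73 for Gzmd, 6.24 for Gzme, 5.27 for Pf4, 4.50 for Arg1 and 4.38 for Dab2. It was the lower for Jchain (-3.35), Il2 (-2.68), Stfa3 (-2.41), Septin4 (-2.25) and Trat1 (-2.09). Jchain, the joining chain of secreted antibody, differed by 0.64 early and 3.99 at day 12. Among the largest early rises the gap passed for Rhbdf2 (2.09), Kcnj13 (1.94), Ovol2 (1.77), Serping1 (1.31) and Alcam (1.11). Among the largest early falls it passed for Mrc1 (3.01), Cysltr1 (2.45), Spon1 (2.28), B4galt6 (2.15), Wdfy4 (1.96) and H2-DMb1 (1.39), each more negative at day 12.

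The effect differed between early B16 and MC38 day 6 for 56 genes. The early B16 effect was the higher for Col5a1 (3.33), Col6a1 (2.95), Cav1 (2.76), Cald1 (2.76) and Cd34 (2.75), genes known from stromal and vascular cells. The early B16 group means of these genes were only 2.65 to 3.70, where the median of all values was 3.64. Their differences were -0.04 to 0.33 in early B16 and -3.22 to -2.52 in MC38, so these gaps came from MC38. The early B16 effect was also the higher for Serping1 (1.76) and Havcr2 (1.29). It was the lower for F7 (-2.37), Flt1 (-2.04), Bcl2 (-1.96), Cfb (-1.90) and Zbtb10 (-1.89). In MC38 the fibroblast and matrix list had a median difference of -1.85, against 0.02 in early B16.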

How the results depend on the processing

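The early count of 76 genes was 42 with the mean over probe sets, 33 with no variance trend, 271 with array weights, 145 on the 8 early and day 12 B16 arrays and 15 on the 4 early arrays alone. Leaving out 1 array gave 0 to 294. The filter on dim genes, cyclic loess, the 75th percentile and the robust trend gave 54 to 86. The count of gaps to day 12 (1075) was 1813 with array weights and 1711 on 8 arrays, and 601 to 980 with an array left out. The count of gaps to MC38 (56) was 31 with no variance trend and 4 to 158 with an array left out. With the replicate number as a block, the counts were 52, 936 and 16. The arrays share only a number: the deviations of same-numbered early arrays correlated at -0.11 over genes. A crossed pairing, added after seeing the data, gave 119, 971 and 20 calls. For the 15 largest rises and 15 largest falls no alternative turned the early direction. The other settings reused the same early arrays. Leaving out an array could not turn the direction, since groups without overlap were required of these genes. Their tests stayed past the threshold 213 times and lost it 83 times over the other settings, and stayed 35 times and lost it 85 times with an array left out. Early differences that had not passed did turn with an array left out, for Pf4, Col5a1, Cald1 and Cd34. Why the counts moved was not tested. With 2 arrays a group, a difference that missed the threshold may still be present.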

Other observations

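Inflammatory cytokine genes had a median difference of -0.52, and 1 of 15, Ebi3, passed. Of 11 monocyte-attracting chemokine genes 0 passed: the median was -0.71, with 0.00 on deleted array 1 and -1.01 on deleted array 2. Of 11 scavenger receptor genes Mrc1 passed, and the median was -0.29. Of 16 lysosomal protease genes Ctss passed, with a median of -0.13. None of 13 monocyte genes, 13 toll-like receptor genes and 13 genes of arginine and polyamine metabolism passed, with medians of -0.21, -0.45 and -0.47.

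The T helper cytokine list had 0 of 13 genes past the threshold and 11 differences below 0 (median -0.17). Over all genes, 8480 of 17097 differences were below 0. The 23 genes of glycolysis and hypoxia had a median of 0.03 with 0 passing, where at day 12 in B16 the median was -0.81. The gap between the effects passed for 14 of these 23, each higher early, where over all genes 4.41% passed as higher early. The basophil and mast cell list had medians of 0.11 early, 1.09 at day 12 and 1.85 at day 18 in B16.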
